A study of Mus musculus with 2 samples.

Results

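Expression of 10 ligand genes of the tumour necrosis factor (TNF) superfamily was examined in 2 sorted populations of mouse liver cells. The ligands were chosen by name as death ligands (Tnfsf10, Fasl), TNF and lymphotoxins (Tnf, Lta, Ltb), and costimulatory or survival ligands (Tnfsf4, Tnfsf8, Tnfsf11, Tnfsf14, Tnfsf13b). The rule itself uses no measured value, but the list was drawn up with earlier results of these data known. All 17 probe sets annotated to exactly 1 of these genes were taken, out of 45101 probe sets on the array and 18194 named genes. The DX5- population was DX5- NK1.1+ CD3- and the DX5+ population DX5+ NK1.1+ CD3-. Both were sorted by flow cytometry from livers of untreated (naive) B6 wild-type mice. NK1.1 is a surface lectin of natural killer (NK) cells, CD3 is the signalling complex of the T cell receptor, and the antibody DX5 binds the integrin alpha 2 chain encoded by Itga2. Each population was hybridised to 1 Affymetrix array, so n = 1 per population. The sources used here do not give the age, sex or number of the mice, or any pooling. The aim stated in the labels was to detail how both populations differ in gene expression.

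TNF superfamily ligands are mostly type II membrane proteins that act as trimers on receptors of the TNF receptor superfamily. Some receptors carry a death domain and can start apoptosis through FADD and caspase-8, and others recruit TRAF adaptors and turn on NF-kappaB. NK cells use TRAIL (encoded by Tnfsf10) and FasL (encoded by Fasl) to kill targets without perforin, and TRAIL is a known surface protein of liver NK cells without DX5. Lymphotoxin beta pairs with lymphotoxin alpha in a membrane heterotrimer that signals through the lymphotoxin beta receptor, which LIGHT (encoded by Tnfsf14) binds as well.

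The genes lie in several chromosomal groups. In the RefSeq gene order of assembly GRCm38.p6, Ltb, Tnf and Lta are direct neighbours among protein-coding genes on chromosome 17, Tnfsf14 lies elsewhere on chromosome 17 beside Cd70, and Tnfsf4 and Fasl flank Tnfsf18 on chromosome 1. A promoter window was found in the RefSeq table for 9 of the 10 genes. The windows of the 4 ligands that passed 2-fold upward in DX5- cells, and of Fasl, which read nearly alike, are shown because they allow the regulatory letters of these ligands to be set side by side. Each sequence is the 250 bases before the RefSeq start (GRCm38.p6), 5′ to 3′ on the gene's strand. The windows are chr3:27316827-27317076 on the plus strand for Tnfsf10, chr17:35194257-35194506 on the plus strand for Ltb, chr17:35202008-35202257 on the minus strand for Tnf, chr17:57194182-57194431 on the minus strand for Tnfsf14 and chr1:161788496-161788745 on the minus strand for Fasl. Capitals mark matches on either strand to the first part of the classic kappaB site (GGGACTT), an AP-1 motif (TGANTCA), a T-box core (AGGTGT), an NFAT core (GGAAA) and a TATA motif (TATAAA).
Tnfsf10: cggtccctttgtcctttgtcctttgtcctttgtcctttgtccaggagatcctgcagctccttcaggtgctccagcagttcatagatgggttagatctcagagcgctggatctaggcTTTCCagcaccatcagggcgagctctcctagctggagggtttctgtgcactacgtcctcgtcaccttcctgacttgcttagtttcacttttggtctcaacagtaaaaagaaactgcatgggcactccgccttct
Ltb: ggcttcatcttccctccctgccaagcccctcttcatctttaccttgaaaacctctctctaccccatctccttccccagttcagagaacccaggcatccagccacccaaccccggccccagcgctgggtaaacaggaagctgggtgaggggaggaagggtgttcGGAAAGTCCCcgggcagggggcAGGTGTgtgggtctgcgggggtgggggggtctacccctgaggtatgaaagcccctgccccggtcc
Tnf: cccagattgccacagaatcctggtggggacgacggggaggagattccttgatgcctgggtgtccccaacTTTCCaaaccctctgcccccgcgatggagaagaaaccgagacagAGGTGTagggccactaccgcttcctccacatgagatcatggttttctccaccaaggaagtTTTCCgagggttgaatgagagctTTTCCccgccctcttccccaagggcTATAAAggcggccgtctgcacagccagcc
Tnfsf14: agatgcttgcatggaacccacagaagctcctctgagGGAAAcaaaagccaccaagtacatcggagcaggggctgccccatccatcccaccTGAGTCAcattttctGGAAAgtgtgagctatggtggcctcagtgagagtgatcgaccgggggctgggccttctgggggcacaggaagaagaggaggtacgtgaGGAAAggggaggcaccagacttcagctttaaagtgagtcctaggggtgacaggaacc
Fasl: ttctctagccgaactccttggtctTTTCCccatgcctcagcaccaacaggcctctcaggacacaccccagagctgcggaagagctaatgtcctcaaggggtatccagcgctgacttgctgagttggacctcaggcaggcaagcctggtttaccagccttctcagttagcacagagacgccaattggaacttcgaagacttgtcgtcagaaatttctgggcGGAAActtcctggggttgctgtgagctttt

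Motif matches are given by gene for the 9 genes with a window, and shares of all promoters are by window. Counts this small were not tested against those shares. The kappaB letters occurred once, in Ltb, and in 4.65% of 32851 mouse promoter windows of the same length. Its match in Ltb spans bases -84 to -78 and overlaps the NFAT core counted there. The T-box core was found in Ltb and Tnf and in 11.8% of all windows, the AP-1 motif in Tnfsf14 and 1 of the Tnfsf13b windows and in 6.75% of all windows. The TATA motif was found in Tnf, Lta and Tnfsf11 and in 12.4% of all windows, and in Tnf it lies at bases -29 to -24. The NFAT core was present in all 9 genes with a window, and in 55.6% of all windows. The Tnfsf10 window held 1 match in all, to the NFAT core. A match describes letters and does not show binding, and the motifs were picked from general knowledge with the sequences in view.

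The deposited values are MAS5 intensities, 1 linear number per probe set and array, which the authors scaled so that the mean without the lowest and highest 2% of probe sets was 500.0 on each array. To judge detection, 149 probe sets were taken for taste, olfactory and vomeronasal receptors, lens crystallins, opsins and keratin-associated proteins, gene families with little use in these cells. Their 95th percentile served as limit of detection and was 76.1 in the DX5- sort and 82.6 in the DX5+ sort. A value given for a sort is that of its 1 array. Log2 ratios are DX5- minus DX5+, and a gene with several probe sets is represented by the brightest. Where a gene lay below the limit on 1 array, that array's limit took the place of its value, which makes its fold a minimum, given as "at least". With 1 array per population there is no spread between samples and no test, and every fold describes these arrays. The only error measure is the SD of the log2 ratio between probe sets of the same gene, 0.34 over 4389 genes with several probe sets above both limits. It covers probe noise and leaves out mice, sorts and labellings. In sorted bulk cells, more cells with a transcript and more transcript per cell cannot be told apart.

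Of the 10 ligands, 4 read at least 2-fold higher in the DX5- sort (Tnfsf10, Ltb, Tnf and Tnfsf14) and 0 read at least 2-fold lower. Among all 10643 genes above the limit on at least 1 array, 3.76% passed 2-fold upward in DX5- cells, 5.66% passed it downward and 9.41% passed it in either direction. All 10 ligands passed the limit on at least 1 array, 7 of them in both sorts, 2 in DX5- cells alone and 1 in DX5+ cells alone. Of all 18194 named genes, 10643 passed it on at least 1 array. Of those, 9358 passed it in both sorts, 632 in DX5- cells alone and 653 in DX5+ cells alone. The median log2 ratio of the ligands was 0.16, with 3 ligands at their bound, against -0.016 over all 10643 genes. The ligand median was 0.31 with median centring or quantile normalization, 0.33 with intensity-dependent centring and 0.39 with spike-in scaling, and between 1.02 and 1.15 with no limit or a stricter one, where measured values replace the bounds or fewer ligands enter. Tnfsf14, at 2.03-fold, was the ligand just inside the 2-fold threshold, and Tnfsf4, at 1.71-fold in the other direction, the nearest outside it.

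The split of all genes past 2-fold depended on the scaling. As deposited, 400 genes passed 2-fold upward and 602 downward in DX5- cells, so 39.9% of them were higher. This share was 56.7% with both arrays centred on their median and 65.1% with the arrays scaled to the hybridisation spike-in controls. Those scalings moved the median of all detected genes by 0.14 and 0.22 on the log2 scale. The count of ligands at least 2-fold higher was 4 under either of them, beside a share of 5.40% and 6.76% of all genes.

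**Figure D1:**
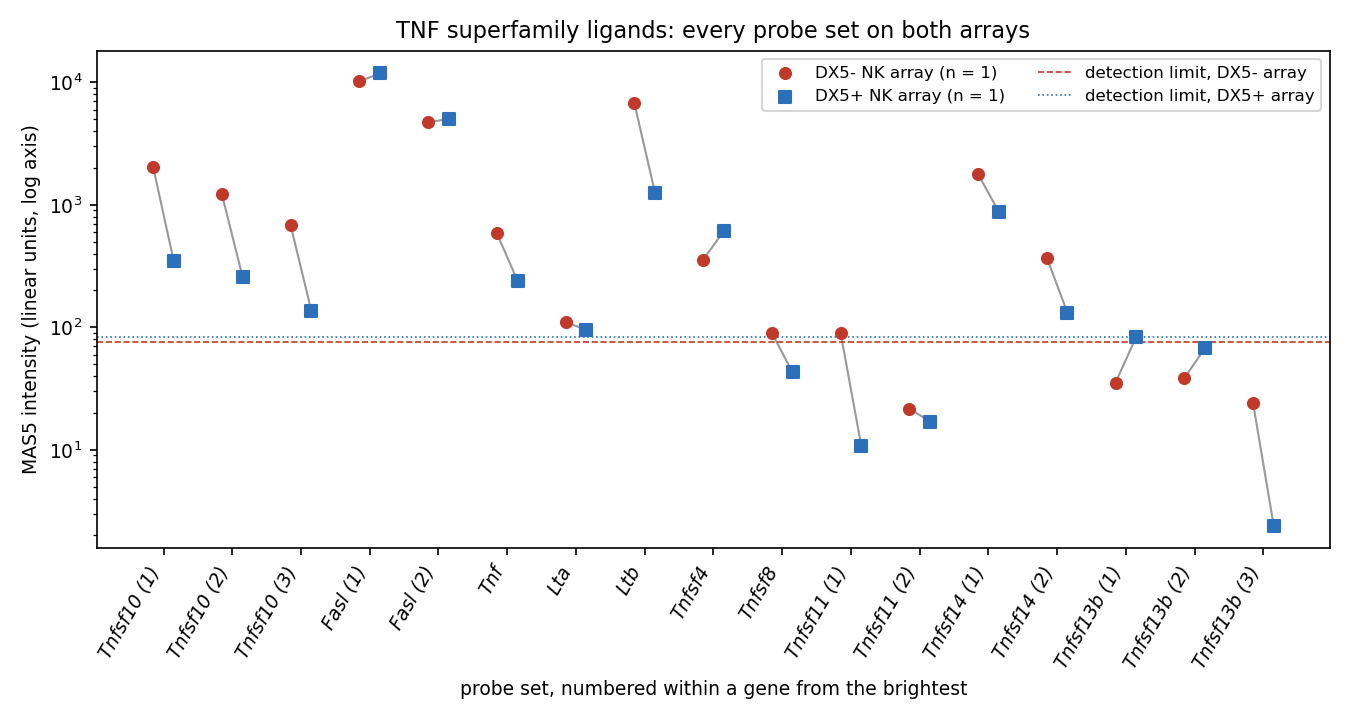
MAS5 intensity (log axis) of every probe set of the 10 ligand genes in the DX5- sort (circles) and the DX5+ sort (squares), n = 1 each; grey lines join the 2 readings of a probe set, and the horizontal lines are the detection limits of 76.1 (DX5-) and 82.6 (DX5+). All 3 Tnfsf10 probe sets, both Tnfsf14 probe sets and the single Ltb and Tnf probe sets lie higher in the DX5- sort, while Lta, Tnfsf8, Tnfsf11 and Tnfsf13b lie near or under the limits.

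Tnfsf10 encodes TRAIL, the ligand of a death receptor that is encoded in the mouse by Tnfrsf10b. It had the highest ratio among the 7 ligands above both limits, and all 3 of its probe sets pointed the same way. Probe set 1439680_at, the brightest, read 2026 in the DX5- sort and 345 in the DX5+ sort, a 5.87-fold difference (log2 ratio 2.55). Probe set 1459913_at read 1215 in the DX5- sort and 258 in the DX5+ sort, or 4.70-fold. Probe set 1420412_at read 678 in the DX5- sort and 136.5 in the DX5+ sort, or 4.97-fold. The log2 ratios of the 3 probe sets thus ran from 2.23 to 2.55, a range narrower than the SD of 0.34 between probe sets of a gene. By its ratio Tnfsf10 ranked 33rd from the top of the 10643 detected genes. The 3 genes above both limits with the nearest log2 ratio over these 2 arrays were Cd7 (an immunoglobulin-family receptor of T and NK cells, 5.87-fold), Vasn (vasorin, 5.78-fold) and Ckb (brain-type creatine kinase, 5.68-fold), a likeness that rests on a single ratio per gene.

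Fasl encodes FasL, the ligand of the death receptor Fas and a cargo of secretory granules in killer lymphocytes. Unlike Tnfsf10, it read nearly alike in both populations. Probe set 1449235_at read 10209 in the DX5- sort and 11842 in the DX5+ sort (log2 ratio -0.21), and probe set 1418803_a_at read 4713 in the DX5- sort and 5041 in the DX5+ sort (log2 ratio -0.097). Both ratios were smaller than the SD between probe sets of a gene. The sign of Fasl was not stable, since with spike-in scaling its log2 ratio was 0.014.

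Tnf, Lta and Ltb, the neighbours on chromosome 17, showed 3 different ratios. Ltb, which encodes the membrane anchor of the lymphotoxin heterotrimer, read 6733 in the DX5- sort and 1253 in the DX5+ sort, a 5.37-fold difference (log2 ratio 2.43) that ranked 40th from the top of all detected genes. Tnf, which encodes the inflammatory cytokine TNF, read 584 in the DX5- sort and 239.8 in the DX5+ sort, or 2.44-fold (log2 ratio 1.28). Lta, which encodes lymphotoxin alpha, the partner of lymphotoxin beta, read 110.0 in the DX5- sort and 95.7 in the DX5+ sort (log2 ratio 0.20). The Lta values lay just above the limits, where a ratio carries little information. Each of these genes had 1 probe set of its own, and no second probe set can be set beside them.

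Tnfsf14 encodes LIGHT, a T cell costimulator that binds HVEM (encoded by Tnfrsf14) and the lymphotoxin beta receptor. Probe set 1450298_at read 1781 in the DX5- sort and 879 in the DX5+ sort, or 2.03-fold (log2 ratio 1.02). Probe set 1421588_at read 370 in the DX5- sort and 131 in the DX5+ sort, or 2.82-fold. Both probe sets were at least 2-fold higher in DX5- cells, but the brighter lies at the threshold and read a log2 ratio of 0.99 when an offset of 32 intensity units was added before taking logs.

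Tnfsf4 encodes OX40 ligand, a costimulator of activated T cells through OX40. Among the 7 ligands above both limits it had the lowest ratio, at 356 in the DX5- sort and 611 in the DX5+ sort, or 1.71-fold lower in DX5- cells (log2 ratio -0.78). That is within 2-fold, though larger than the SD of 0.34 between probe sets of a gene. This SD leaves out mice, sorts and labellings, and Tnfsf4 had 1 probe set, with no second to set beside it.

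The remaining 3 ligands gave little or no signal. Tnfsf8, which encodes CD30 ligand, read 90.1 in the DX5- sort and 42.9 in the DX5+ sort, below the limit there, so that it was at least 1.09-fold higher in DX5- cells. Tnfsf11 encodes RANKL, the ligand that drives osteoclast formation and lymph node development. Its brighter probe set read 89.6 in the DX5- sort and 10.8, below the limit, in the DX5+ sort, or at least 1.08-fold higher in DX5- cells. Its other probe set read 21.7 in the DX5- sort and 17.0 in the DX5+ sort, below both limits. Tnfsf13b encodes BAFF, a survival factor of B cells made mainly by myeloid and stromal cells. It passed the limit in the DX5+ sort only, with 35.4 in the DX5- sort and 83.9 in the DX5+ sort for probe set 1460255_at, a log2 ratio of -0.14 or lower. The other Tnfsf13b probe sets were below both limits, at 38.5 and 24.0 in the DX5- sort and 67.7 and 2.4 in the DX5+ sort. For these ligands the bound is close to 1, and neither a difference nor its absence can be read from it. With limits of 98.5 in the DX5- sort and 107 in the DX5+ sort, tried after seeing the data, all 3 were below the limit in both sorts.

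**Figure D2:**
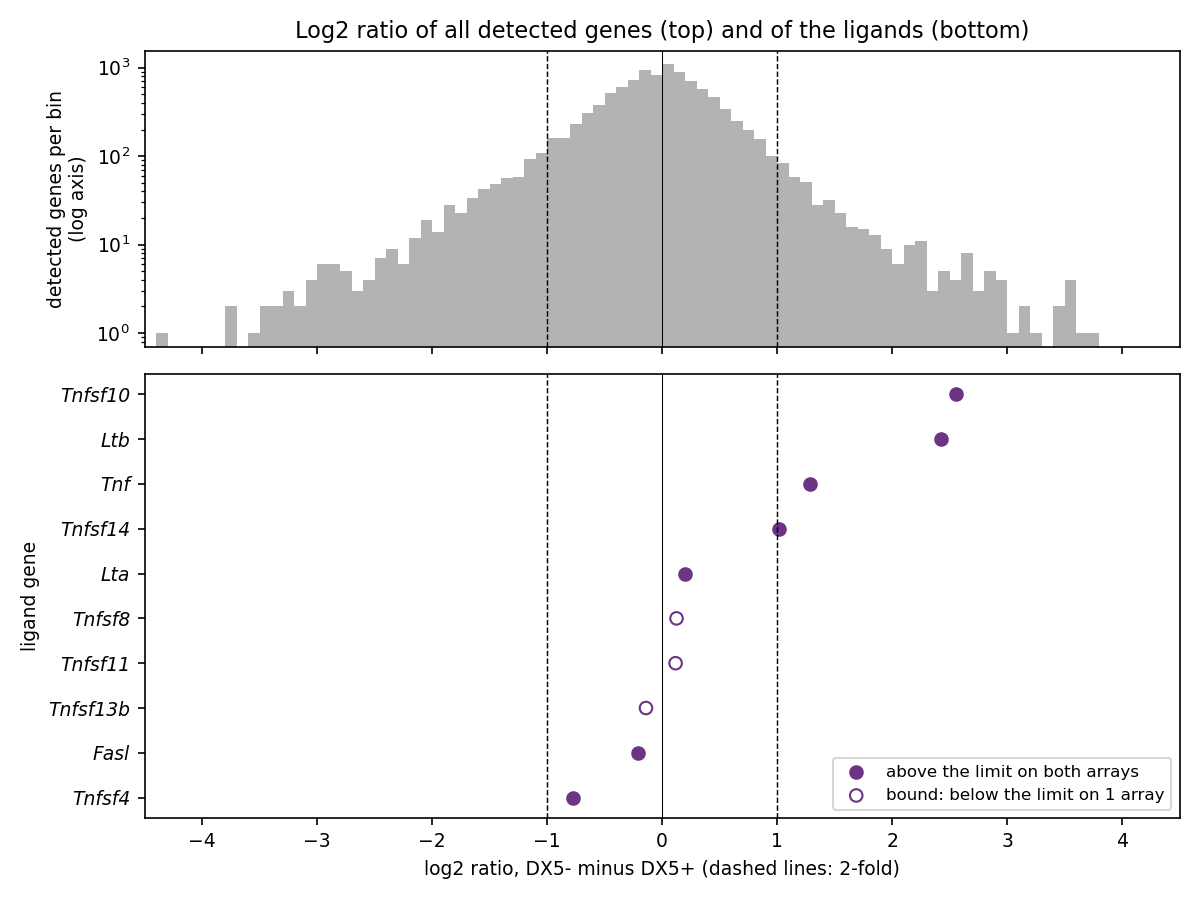
Top: number of detected genes (log axis) by log2 ratio, DX5- minus DX5+, for all 10643 detected genes. Bottom: log2 ratio of each ligand on the same axis, filled where the gene was above the limit on both arrays and open where the value is a bound; Tnfsf10 (2.55), Ltb (2.43), Tnf (1.28) and Tnfsf14 (1.02) lie right of the 2-fold line and no ligand lies left of the opposite one.

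Further TNF superfamily ligands were hardly represented. Of 8 other ligand genes 4 had a probe set of their own, and 1 of these was above the limits. That gene was Tnfsf9, which encodes 4-1BB ligand and read 309 in the DX5- sort and 237 in the DX5+ sort (log2 ratio 0.38). Cd40lg, Cd70 and Eda were below the limit on both arrays.

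Receptors of the 10 ligands had mostly small ratios. Of 15 receptor genes 9 were detected, of which 0 passed 2-fold upward and 1 downward in DX5- cells, with a median log2 ratio of -0.24. Among all detected genes 3.76% passed 2-fold upward and 5.66% downward, so such counts do not set the receptors apart. For TRAIL, the death receptor gene Tnfrsf10b was below both limits. Tnfrsf22 and Tnfrsf23, which encode mouse decoy receptors for TRAIL, read 113.9 and 86.8 in the DX5- sort and 236.7 and 172.1 in the DX5+ sort, a log2 ratio of -1.06 and -0.99. These are closely related genes, and cross-hybridisation between their probe sets was not tested. The Tnfrsf22 call was absent with median centring, quantile normalization, spike-in scaling, intensity-dependent centring and the limit at the 99th percentile.

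The other receptor genes were set beside their ligands. Fas read 378 in the DX5- sort and 446 in the DX5+ sort (log2 ratio -0.24). Of the TNF receptors, Tnfrsf1a, which carries a death domain, read 2742 in the DX5- sort and 1706 in the DX5+ sort (log2 ratio 0.68), and Tnfrsf1b, which recruits TRAF2, read 6372 in the DX5- sort and 9632 in the DX5+ sort (log2 ratio -0.60). Both TNF receptor genes were within 2-fold, on opposite sides of 0. Ltbr, the receptor of the lymphotoxin heterotrimer and of LIGHT, read 109.3 in the DX5- sort and 94.0 in the DX5+ sort, close to the limits, and Tnfrsf14 was below both limits. Tnfrsf4, the OX40 gene, read 614 in the DX5- sort and 562 in the DX5+ sort. Tnfrsf8, Tnfrsf11a and Tnfrsf11b, the receptor genes for CD30 ligand and RANKL, and Tnfrsf17 were below both limits, while the BAFF receptor genes Tnfrsf13b and Tnfrsf13c had log2 ratios of -0.30 and 0.23.

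Genes that carry or restrain the receptor signal were detected throughout. Of 17 with a probe set of their own, 17 were detected, 1 passed 2-fold upward in DX5- cells and 0 passed it downward (median log2 ratio -0.11). The shares over all detected genes were 3.76% upward and 5.66% downward. The higher gene was Birc2, which encodes the ubiquitin ligase cIAP1, at 6943 in the DX5- sort and 3325 in the DX5+ sort (2.09-fold). Fadd, the adaptor of the death receptors, read 197 in the DX5- sort and 346 in the DX5+ sort (log2 ratio -0.81). Of the TRAF adaptor genes, Traf6 had a log2 ratio of -0.77 and Traf1, at 8362 in the DX5- sort and 5257 in the DX5+ sort, one of 0.67. Cflar, which encodes the caspase-8 inhibitor c-FLIP, had a log2 ratio of -0.67. These are values of the brightest probe sets, and in Traf6, Traf1 and Cflar alike the probe sets did not all share a direction. Tnfaip3, the NF-kappaB inhibitor A20, read 29693 in the DX5- sort and 23127 in the DX5+ sort for its brightest probe set (1.28-fold) and 7370 in the DX5- sort and 2997 in the DX5+ sort for another (2.46-fold).

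By their brightest probe sets, genes that act on the ligands themselves stayed within 2-fold on the deposited scale. Of 12 genes of shedding and granule release 11 were detected and 0 were past 2-fold in either direction (median log2 ratio 0.13). Adam17, the protease that sheds TNF, read 1481 in the DX5- sort and 2477 in the DX5+ sort (log2 ratio -0.74), and Unc13d, a granule release gene, read 865 in the DX5- sort and 466 in the DX5+ sort (log2 ratio 0.89). Rhbdf2, which encodes the iRhom2 partner of ADAM17, and Furin, a protease that cleaves BAFF, had log2 ratios of 0.72 and 0.57. Of 10 genes of mRNA decay or stability, several of which act on the AU-rich element of Tnf mRNA, 10 were detected and 0 were past 2-fold (median log2 ratio 0.17). Among all detected genes 9.41% passed 2-fold in either direction, so a count of 0 in lists this short does not set these genes apart. Zfp36, which encodes the decay factor tristetraprolin, had a log2 ratio of 0.81, Elavl1 one of 0.63, Rc3h1 one of -0.58 and Zfp36l1 one of 0.50. Rc3h2, a relative of the RNA-binding gene Rc3h1, was near 0 for its brightest probe set (log2 ratio -0.012), and its dimmer probe sets above both limits disagreed. Some were near 0, one was higher in DX5- cells (164.3 in the DX5- sort and 132.9 in the DX5+ sort, 1.24-fold) and others were clearly lower. One of the lower ones read 85.8 in the DX5- sort and 288 in the DX5+ sort (3.36-fold lower), and another read 92.9 in the DX5- sort and 311 in the DX5+ sort (3.35-fold lower). Unc13d passed 2-fold upward with median centring (log2 ratio 1.04) and with spike-in scaling (1.12), and Zfp36 with spike-in scaling (1.03).

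Transcription factors known to act on ligand genes went both ways. Of 12 with a probe set of their own, 12 were detected, 1 passed 2-fold upward in DX5- cells and 1 downward (median log2 ratio -0.052). Egr2, which acts on Fasl in T cells, read 2275 in the DX5- sort and 899 in the DX5+ sort (2.53-fold higher), and Eomes, a T-box factor of NK cells, read 1991 in the DX5- sort and 16107 in the DX5+ sort (8.09-fold lower). Nfatc2 had a log2 ratio of 0.80, which was 1.03 with spike-in scaling, and Rel one of 0.63. Tnf can be induced quickly, like the immediate early genes that answer stimulation or handling. Of 21 such genes 21 were detected, 6 passed 2-fold upward in DX5- cells and 0 downward (median log2 ratio 0.53). The largest ratios were those of Junb (2.90-fold higher in DX5- cells), of Egr2 given above, of Atf3 (2.49-fold) and of Fosb (2.47-fold). Of the immediate early genes 10 passed 2-fold upward with spike-in scaling and 5 with quantile normalization, where Fos was no longer past it. The summed intensity of this list was 263813 in the DX5- sort and 196186 in the DX5+ sort, and its part in the ratios of Tnf and the other ligands was not tested. The shares of all genes past 2-fold in each direction, 3.76% higher and 5.66% lower, apply to the counts of every list on the deposited scale. They were 6.76% higher and 3.62% lower with spike-in scaling, and 4.45% higher and 4.85% lower with quantile normalization.

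**Figure D3:**
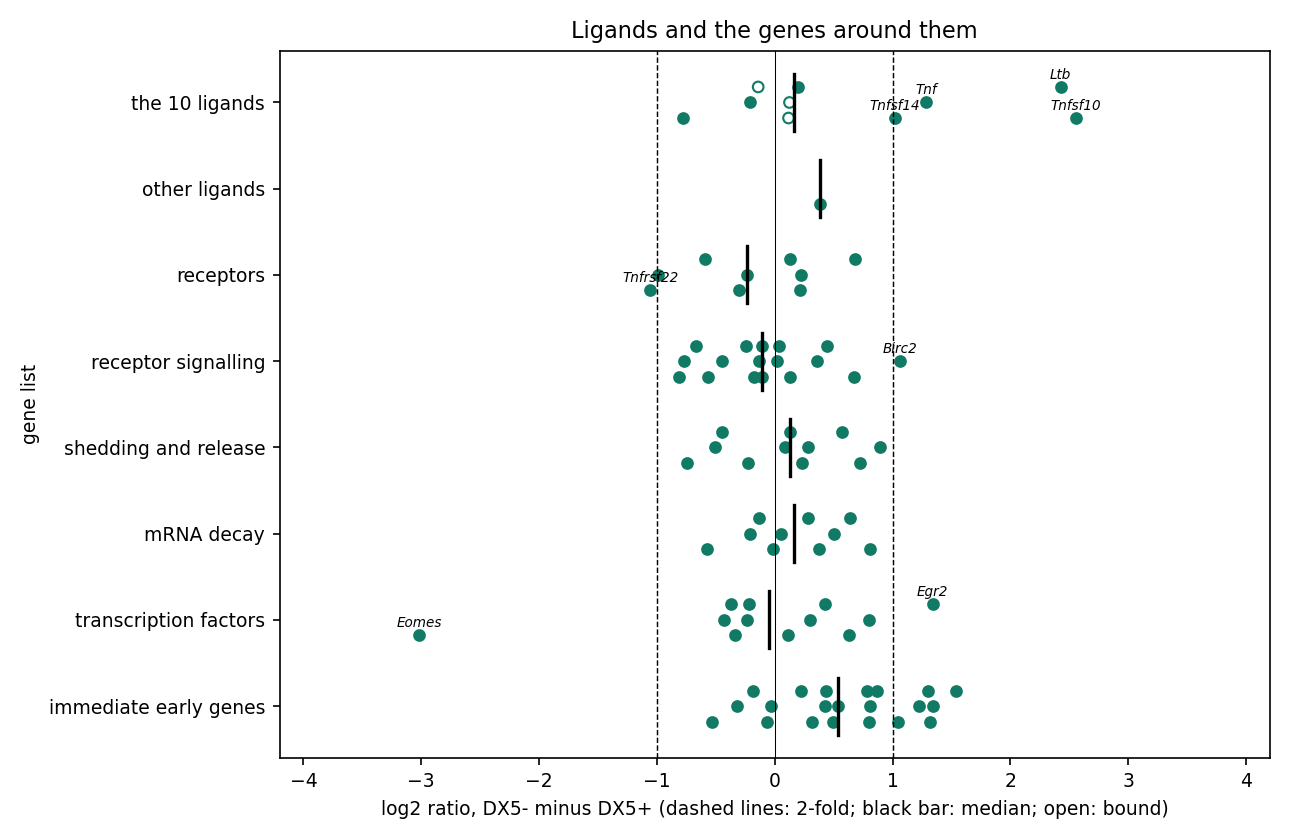
Log2 ratio, DX5- minus DX5+, of each detected gene in the ligand list and 7 lists around it (filled: above both limits; open: a bound; black bars: list medians; names mark genes past 2-fold except among the immediate early genes). Receptor, shedding and decay genes lie mostly within the 2-fold lines, as most detected genes do, while 4 ligands and 6 of 21 immediate early genes lie right of them.

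The labelled cell types were checked against their markers. Of 9 NK cell markers with a probe set of their own 9 were above both limits, 0 passed 2-fold upward in DX5- cells and 1 downward, Prf1, the perforin gene, at 3108 in the DX5- sort and 8978 in the DX5+ sort. Klrd1, Cd244a and Ncr1 had log2 ratios of 0.77, 0.82 and 0.42, and Cd244a read 1.04 with spike-in scaling. A second Prf1 probe set, near the limits at 85.0 in the DX5- sort and 102.5 in the DX5+ sort, was within 2-fold. Itga2, the gene of the DX5 epitope, read 29.0 in the DX5- sort, below the limit, and 105.2 in the DX5+ sort, at least 1.38-fold lower in DX5- cells. No probe set was annotated to Klrb1c (NK1.1) alone.

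Some T cell transcripts were higher in the DX5- sort, as the 4 higher ligands were, although both sorts left out CD3+ cells. Of 9 detected T cell markers 5 passed 2-fold upward in DX5- cells and 0 downward (median log2 ratio 1.32). Cd3g read 14036 in the DX5- sort and 1072 in the DX5+ sort (13.1-fold), Cd3e 373 in the DX5- sort and 83.1 in the DX5+ sort (4.49-fold), Cd3d 2607 in the DX5- sort and 782 in the DX5+ sort (3.33-fold) and Lat 2933 in the DX5- sort and 1150 in the DX5+ sort (2.55-fold). Cd8a was at least 2.50-fold higher by its brightest probe set and 1.68-fold higher by another, and its minimum was under 2-fold with the stricter limits. Cd6 and Cd5 had log2 ratios of 0.93 and 0.57. Cd28 went slightly the other way, at 7668 in the DX5- sort and 8442 in the DX5+ sort (log2 ratio -0.14). Cd8b1 read 29.6, below the limit, in the DX5- sort and 104.2 in the DX5+ sort, at least 1.37-fold lower. Cd4 was below both limits, and Trac and Trbc2 had no probe set of their own. The summed intensity of the list was 28229 in the DX5- sort, where Cd3g was its largest part, and 11942 in the DX5+ sort, where Cd28 was. T cells are a known source of Ltb, Tnf, Fasl and Tnfsf14. Whether T cells were present in either sort was not tested, and neither was a part of such cells in the ligand ratios.

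B cell and innate lymphoid markers above both limits stayed within 2-fold. B cell markers, of interest for Ltb and Lta, had 6 of 7 detected and 0 past 2-fold (median log2 ratio 0.38), with a summed intensity of 1647 in the DX5- sort and 1260 in the DX5+ sort. Blk, Cd79b, Ms4a1 and Pax5 had log2 ratios of 0.43, 0.41, 0.39 and at least 0.38, and Cd79a was below both limits. Pax5, a B cell transcription factor gene, read 107 in the DX5- sort and 13.6 in the DX5+ sort, below the limit, so that its value is a minimum. With no detection limit its log2 ratio was 2.98. Among markers of type 3 innate lymphoid cells (ILC3), known to use lymphotoxin and RANKL, 2 of 3 with a probe set were detected, 0 were past 2-fold and the median log2 ratio was -0.20. Il17a read 89.0 in the DX5- sort and 118 in the DX5+ sort, Ccr6 lay at the limits and Il1r1 below them, so the ILC3 markers on the array were at or near the limit.

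Most detected macrophage and platelet markers and 3 neutrophil markers were at least 2-fold lower in the DX5- sort, opposite in direction to the 4 higher ligands. Of 13 macrophage markers 5 were detected, 0 passed 2-fold upward in DX5- cells and 4 downward (median log2 ratio -1.61), with a summed intensity of 1245 in the DX5- sort and 4130 in the DX5+ sort. C1qa, C1qb, C1qc, Clec4f, Timd4, Cd163, Marco and Vsig4 were below both limits, while Mpeg1 was 4.25-fold, Lyz2 3.44-fold, Csf1r at least 3.06-fold and Cd68 2.05-fold lower. The Csf1r probe sets disagreed, since one read 111.6 in the DX5- sort and 129.5 in the DX5+ sort (1.16-fold lower), and another read 95.6 in the DX5- sort and 21.8, below the limit, in the DX5+ sort. Of 8 neutrophil markers 5 were detected and 3 were at least 2-fold lower, Ngp (2.94-fold), S100a9 (2.90-fold) and S100a8 (2.51-fold), with a list median of -1.33 and Camp at -0.80 on the log2 scale. The neutrophil sum was 3804 in the DX5- sort and 9652 in the DX5+ sort, and Elane, Mpo and Cxcr2 were below both limits. Of 8 platelet markers 7 were at least 2-fold lower (median log2 ratio -1.98), led by Clec1b (8.26-fold), Ppbp (7.45-fold), Gp1bb (at least 7.41-fold) and Pf4 (5.16-fold), with a sum of 1310 in the DX5- sort and 5987 in the DX5+ sort. A second Gp1bb probe set, above both limits, was 1.38-fold lower (93.9 in the DX5- sort and 129 in the DX5+ sort). Tnfsf4, which read lower in DX5- cells, shares this direction, and the part of any macrophages, neutrophils or platelets in its value was not tested. For Tnfsf13b, close to the limits, no direction can be read, and the sign of Fasl was not stable.

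The other lists gave smaller counts. Of 6 detected dendritic cell markers 2 were at least 2-fold lower, Siglech (3.39-fold) and Ccr7 (2.11-fold), with a median of -0.79 on the log2 scale and Cd209a and Flt3 at least 1.75-fold and 1.71-fold lower. Ccr7 was within 2-fold with median centring and with spike-in scaling, which left Siglech alone past it. Zbtb46 was 1.34-fold lower for its brightest probe set and 2.19-fold and 3.66-fold lower for dimmer ones. Itgax, the brightest of the list, went the other way, at 5739 in the DX5- sort and 3971 in the DX5+ sort (1.45-fold higher). The list's sum, of which Itgax is the largest part, was 7226 in the DX5- sort and 6909 in the DX5+ sort. Of 4 detected basophil and mast cell markers 1 was at least 2-fold lower, Cpa3 (4.65-fold), with Gata2 1.72-fold and Mcpt8 at least 1.63-fold lower and a list median of -0.74. Kit, the brightest of them, read alike, at 1738.5 in the DX5- sort and 1738.9 in the DX5+ sort. Of 5 detected hepatocyte markers 1 was at least 2-fold lower, Ttr (2.22-fold, and within 2-fold with spike-in scaling), with Alb, the albumin gene, at 836 in the DX5- sort and 1262 in the DX5+ sort and a list median of -0.32. Of 3 detected endothelial markers 0 were past 2-fold (median log2 ratio -0.096), and Stab2 had a log2 ratio of -0.91.

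**Figure D4:**
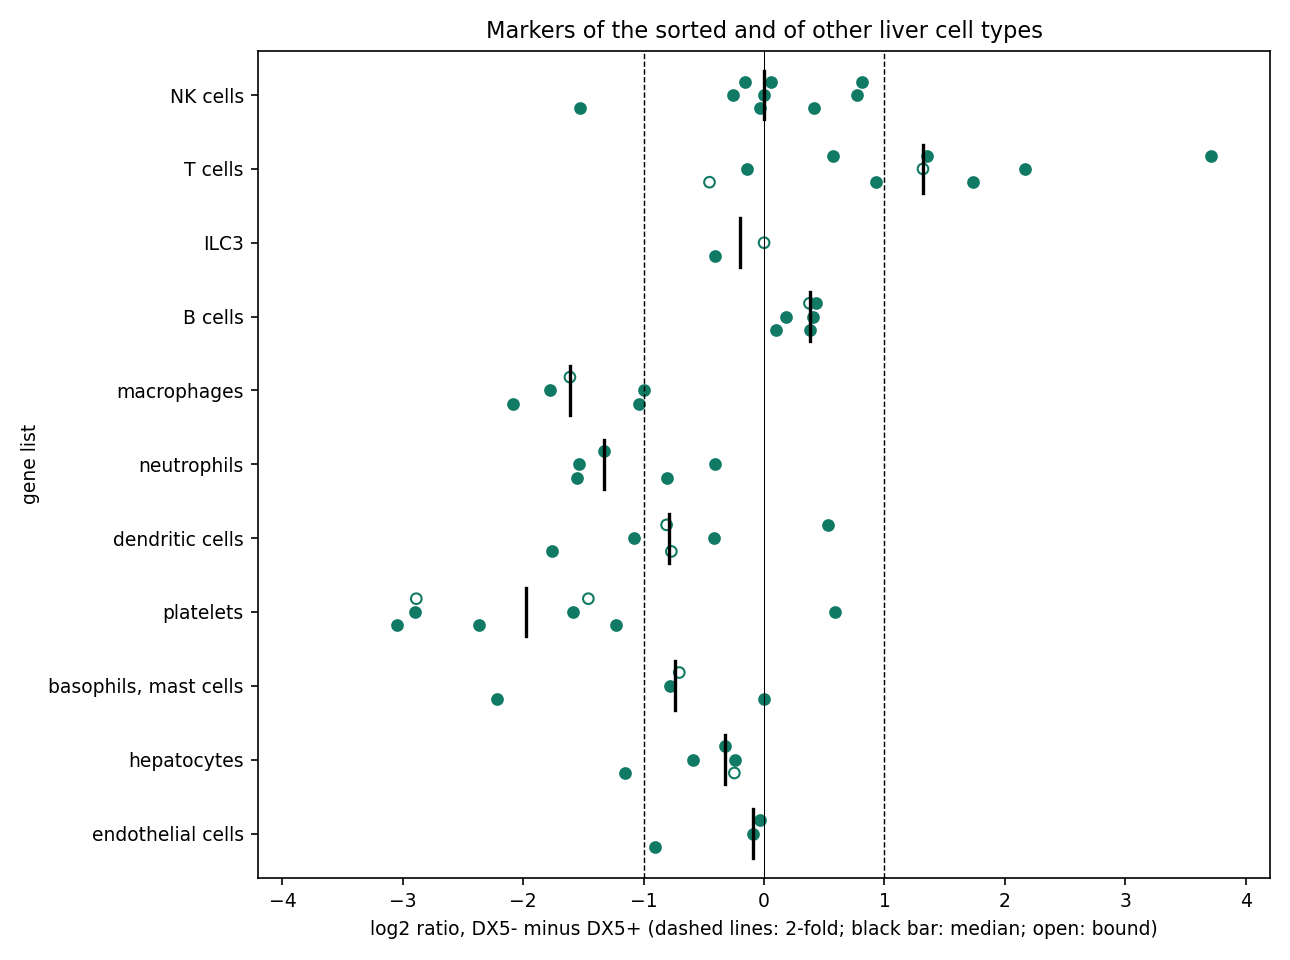
Log2 ratio, DX5- minus DX5+, of each detected marker of NK cells and of 10 further cell types found in liver or blood (filled: above both limits; open: a bound; black bars: list medians). NK cell markers have a median near 0, and most T cell markers lie to the right with a median of 1.32. All platelet markers but Gp6 and all detected macrophage markers lie to the left, with list medians of -1.98 and -1.61.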

How the data were processed

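Per the submitters' processing notes the authors used MAS5 to make the intensities. That method summarises each probe set as a linear signal and rescales a whole array at once, so a value moves with the rest of its array. The sources used here give neither version nor settings, and detection calls and scanner values were not analysed here. The 45101 deposited intensities per array, 64 of them for control probe sets, ran from 0.1 to 43870. The platform's annotation covered 35890 probe sets, 34958 with a single gene symbol and 932 with several. The other 9211 are unnamed here, and 34754 of those with a single symbol matched a RefSeq gene identifier.

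Deposited intensities were log2-transformed without an offset. Genes above the limits numbered 9358 in both sorts, 632 in DX5- cells alone and 653 in DX5+ cells alone. The limit leaves out Crybg1, Crybg2 and Crybg3, which carry a crystallin fold but are not lens genes; Crybg1 read 1205 in the DX5- sort and 2646 in the DX5+ sort. With 1 array per population no test was made, and no correction across genes applies. The ligands and the 19 other lists (197 genes in all, of which 175 could be measured) were chosen with earlier results of these data known. Named genes were every ligand with every probe set, every sort marker, up to 4 detected genes with the largest absolute log2 ratio of each list, and the 3 genes with the ratio nearest to that of the ligand furthest from 0. Further list genes were named after their values were seen. Alternatives changed the scaling, the limit, the probe set rule and the offset. The steps ran in Python 3.11.15 with pandas 2.3.3 and were tested on simulated data. The number of arrays limits the precision.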

Additional observations from a re-analysis of the deposited data

How the results depend on the processing

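No paired analysis was possible because each population had 1 array, and for the same reason no replicate could be left out. Across 10 other settings and 1 more chosen after seeing the data, Tnfsf10, Ltb and Tnf stayed at least 2-fold higher in DX5- cells, with log2 ratios from 2.37 to 2.78 for Tnfsf10, 2.38 to 2.65 for Ltb and 1.18 to 1.51 for Tnf. Tnfsf14 ran from 0.99 to 1.26 and was under 2-fold with the offset of 32 alone. Tnfsf4 ran from -0.78 to -0.55, and Fasl from -0.25 to 0.014. The limit matters most for dim ligands. With no detection limit all 18194 named genes entered, of which 10.4% passed 2-fold upward in DX5- cells and 15.6% downward. These shares were 3.76% and 5.66% of 10643 genes with the limit. Without it, 6 ligands passed 2-fold upward, Tnfsf8 (log2 ratio 1.07) and Tnfsf11 (3.05) being added, and 1 downward, Tnfsf13b (-1.24). The median log2 ratio of the ligands was then 1.04. With a stricter limit, the 99th percentile, it was 1.15, where 6 ligands were detected, and 1.02 with the limit that counts the Crybg genes (98.5 in the DX5- sort and 107 in the DX5+ sort), chosen after seeing the data, where 7 were. The medians under those limits cover fewer ligands, and under the other 8 settings the median was between 0.12 and 0.39. All genes past 2-fold split into 719 higher and 385 lower with spike-in scaling, 575 higher and 439 lower with median centring, and 1888 higher and 2838 lower with no limit, against 400 and 602 as deposited. Of the 38 list counts, 8 moved by over 1.5 times with spike-in scaling, 3 with median centring and 12 with no limit. Values near the limits cannot show a difference at this signal.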
